A study of Arabidopsis thaliana with 12 samples.

Results

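Pentatricopeptide repeat proteins are encoded in the nucleus and act in chloroplasts and mitochondria, where each binds its own stretch of organelle RNA through a row of short helical repeats. Members of the family are known for RNA editing, in which single cytidines of an organelle transcript are changed to uridines, and for splicing, end formation and protection of organelle transcripts. Plants have a large family of these genes, most of them expressed at low levels. The results below concern 4 of them, AT3G13150, AT3G26630, CRR21 (AT5G55740) and AT4G14050, in *Arabidopsis thaliana* after a high-light stress. They are 4 of the 691 genes for which the array held a probe assigned to that gene alone, among 3438 array features in all, and each was read by 1 probe. The genes were chosen by their difference in intensity between recovery and control samples, over the same samples described here. For these 4 genes that difference is therefore a description, with no test.

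All 12 samples were total RNA of wild-type plants of the ecotype Columbia 0, read on a one-channel array. The 6 control samples came from plants grown in light of 80 µE. The 6 recovery samples came from plants that had spent 1 h at 1000 µE and were then put back at 80 µE, for 2 h by the sample titles and 1 h by the source names, a disagreement that was not resolved. The titles give 0 h for control, so time of day and light cannot be told apart. The labels name no tissue, number of plants, pool or batch. Whole-sample RNA was measured, so fewer cells of a type and less RNA per cell cannot be told apart.

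Levels are given as log2 of the deposited intensity after quantile normalisation, which gives every sample the same distribution of values. The lowest intensities were set to a floor of -5.07. None of the 48 values of the 4 genes lay at the floor or near the ceiling of 100. A level of one probe cannot be set against that of another, so levels are compared only within a gene. Samples 1 and 2, 3 and 4, and 5 and 6 of a group resembled each other closely (correlations over all features of 0.853 to 0.942, against 0.683 to 0.824 between samples of different pairs). Each difference is therefore also given by pair. Whether a pair is 2 readings of 1 RNA is not stated in the labels. The p-values of other genes below measure only the spread between these samples, which may be technical. The same holds for the SDs and for the standard errors, which count the samples of a pair as independent. Recovery 3 and 4 stood apart from the other recovery samples, with deposited medians of 0.197 and 0.196 against 0.426 to 0.458. Control 3 and 4, at 0.217 and 0.212, lay among the other control samples, between control 6 (0.202) and control 2 (0.271). On this measure recovery 3 and 4 were thus close to the control samples, and the other recovery samples lay above every control. In limma, 416 features were called without samples 3 and 4 of both groups against 104 with them.

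AT3G13150 was 2.96-fold higher in recovery than in control samples, the largest difference of the 4 genes and the steadiest between pairs. No specific organelle RNA is assigned to its product here. The level of AT3G13150 in the 6 control samples had its lowest value at -0.92, its median at -0.29 and its highest value at 0.16. In the 6 recovery samples the lowest was 0.78, the median 1.38 and the highest 1.55. Every recovery sample of AT3G13150 was thus above every control sample, as held for 1.69% of all features. In deposited units the control samples ran from 0.448 to 1.19 and the recovery samples from 1.67 to 2.77, again without overlap. Mean levels were -0.33 ± 0.45 in control and 1.23 ± 0.34 in recovery (SD, n = 6 each), which differ by 1.56 with a standard error of 0.25. By pair, the first pair (samples 1 and 2) of AT3G13150 differed by 1.34, the second (3 and 4) by 1.65 and the third (5 and 6) by 1.70, recovery being higher in each. The 3 values had an SD of 0.20, the narrowest among the 4 genes.

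The level of AT3G13150 still varied between pairs inside each group. The control pairs had means of 0.15, -0.85 and -0.29 in the order of their numbers, a range of 1.00, and the recovery pairs 1.49, 0.80 and 1.41, a range of 0.68. Samples 3 and 4 were the lowest pair on both sides, so the difference between the groups there was close to that in the other pairs. The gap between the 2 samples of a pair was 0.007 to 0.17, below the median gap of 0.28 over all features.

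AT3G26630, another gene whose target RNA is not assigned here, was 2.73-fold higher in recovery, and it varied mainly among the control samples. Its control levels ran from -1.53 over a median of -0.01 to 0.69, and its recovery levels from 1.06 over a median of 1.28 to 1.62. The groups did not overlap, recovery being above control, as held for 1.69% of all features. The choice of the gene by its difference favours such a separation. In deposited units control samples spanned 0.263 to 1.69 and recovery samples 2.03 to 2.97, also without overlap, but after median centring the groups overlapped. Mean levels of AT3G26630 were -0.15 ± 0.77 in control and 1.30 ± 0.20 in recovery (SD, n = 6 each), 1.45 apart with a standard error of 0.32.

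The 3 pairs disagreed on the size of the difference of AT3G26630. The first pair gave 0.72, the second 2.14 and the third 1.50 (SD of the 3 values 0.71). The recovery pairs stood within 0.29 of each other, at 1.24, 1.20 and 1.48, while the control pairs spanned 1.46, at 0.52, -0.95 and -0.01. Control 4 was the lowest sample, at -1.53 against -0.36 for control 3, the other sample of its pair. Without samples 3 and 4 of both groups the difference was 1.11. Another probe of the array is assigned to AT3G26630 together with a second gene, AT2G42920, and its signal cannot be given to either. That shared probe had a difference of 0.17 with a standard error of 1.09, with pair values of -0.47, 3.37 and -2.40, and so did not follow the probe of AT3G26630 alone.

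CRR21 is a chloroplast pentatricopeptide protein known to be needed for editing of the transcript of ndhD, a plastid gene for a subunit of the NADH dehydrogenase-like complex (NDH), which works in electron flow around photosystem I. CRR21 levels ran from -2.59 over a median of -2.05 to -1.04 in control samples and from -1.89 over a median of -0.92 to -0.30 in recovery samples. The groups overlapped through 1 sample, recovery 2 at -1.89, which lay below control 1 at -1.04 and control 6 at -1.63. Mean levels of CRR21 were -1.96 ± 0.56 in control and -0.90 ± 0.56 in recovery (SD, n = 6 each), 1.06 apart with a standard error of 0.32, or 2.08-fold higher in recovery.

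By pair, recovery exceeded control by 0.37 in the first, 1.57 in the second and 1.22 in the third pair of CRR21. Samples 1 and 2 were also where the readings of CRR21 disagreed most, by 0.98 in control and by 1.45 in recovery, while samples 3 and 4 disagreed by 0.20 and 0.09. In that first pair the difference between the groups was smaller than the gap between its own samples. Taken by replicate number, recovery exceeded control for all 6 numbers, from 0.14 for number 2 to 1.72 for number 3. Without samples 3 and 4 the difference was 0.80.

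AT4G14050 went the other way, with levels 1.86-fold higher in control than in recovery. Its control levels ran from 0.08 over a median of 0.36 to 1.30 and its recovery levels from -0.99 over a median of -0.09 to 0.02. After quantile normalisation the groups did not overlap, as held in that direction for 2.73% of all features, although the highest recovery sample and the lowest control sample were only 0.02 and 0.08. In deposited units they did overlap, with control samples at 0.942 to 2.69 and recovery samples at 0.374 to 1.18. Mean levels of AT4G14050 were 0.55 ± 0.51 in control and -0.35 ± 0.49 in recovery (SD, n = 6 each), a difference of -0.90 with a standard error of 0.29.

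Most of that difference came from 1 pair. AT4G14050 differed by -2.16 in the second pair but by -0.17 in the first and -0.36 in the third, and the SD of these 3 values, 1.10, was larger than their mean. Control 3 and 4 were the highest controls, at 1.30 and 1.06, and recovery 3 and 4 the lowest recovery samples, at -0.96 and -0.99. The 2 samples of each pair agreed within 0.03 to 0.24. Without samples 3 and 4 of both groups the difference of AT4G14050 was -0.27 with a standard error of 0.13.

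**Figure D1:**
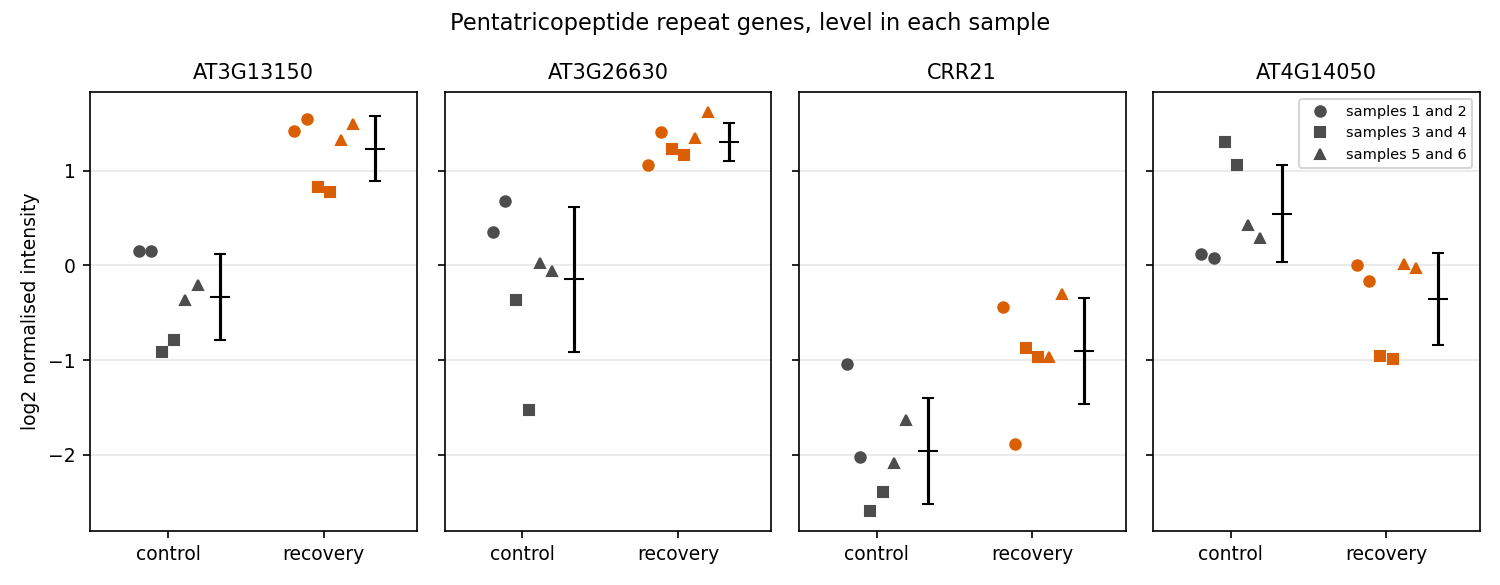
Level of each of the 4 genes in each of the 12 samples, as log2 normalised intensity, with the pair of samples shown by marker shape and the group mean ± SD (n = 6) as a bar. Recovery lies above control without overlap for AT3G13150 and AT3G26630, the groups overlap for CRR21, and for AT4G14050 samples 3 and 4 (squares) are at both extremes.

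With limma over all 12 samples, 2 of the 4 genes, AT3G13150 and AT3G26630, were among the features past an adjusted p under 0.05 and higher in recovery, against 1.19% of all 3438 features (3.03% in either direction). Since the members were drawn from this contrast, nothing is read from that count. When replicate number entered the limma fit as a block, the call of AT3G26630 was lost (adjusted p = 0.0500213) while its difference stayed at 1.45. With each group's pairs fitted as a random block, limma called 0 of the 4 and 3 of all features. Standard errors in that fit were 0.28 for AT3G13150, 0.46 for AT3G26630, 0.57 for CRR21 and 0.32 for AT4G14050. Without any block they were 0.25, 0.32, 0.32 and 0.29 in the same order. With pairs averaged limma also called 0 of the 4, and 0 of all features (203 at an unadjusted p under 0.05). By size of the difference among the 691 genes, AT3G13150 was number 9 and AT3G26630 number 13 from the top, CRR21 number 58, and AT4G14050 number 56 from the bottom. CRR21 and AT4G14050 thus lay well inside the range of the other genes.

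The direction in single pairs depended on the scaling for AT3G26630 and AT4G14050. AT3G13150 and CRR21 were higher in recovery in all 3 pairs under quantile normalisation, the deposited scale, median centring and cyclic loess. AT3G26630 was too, except for samples 1 and 2 after median centring (-0.14). AT4G14050 was lower in all 3 pairs except on the deposited scale, where samples 5 and 6 gave 0.19 and samples 1 and 2 gave -0.01. The deposited scale itself shifted the median of all features by 0.43 over the 12 samples, by 0.56 in the first pair, 0.90 in the third and -0.18 in the second. Relative to the overall median, the differences on that scale were 1.27 for AT3G13150, 1.20 for AT3G26630, 1.17 for CRR21 and -1.27 for AT4G14050. In samples 1 and 2 AT3G26630 then matched the typical feature, with 0.57 against 0.56.

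**Figure D2:**
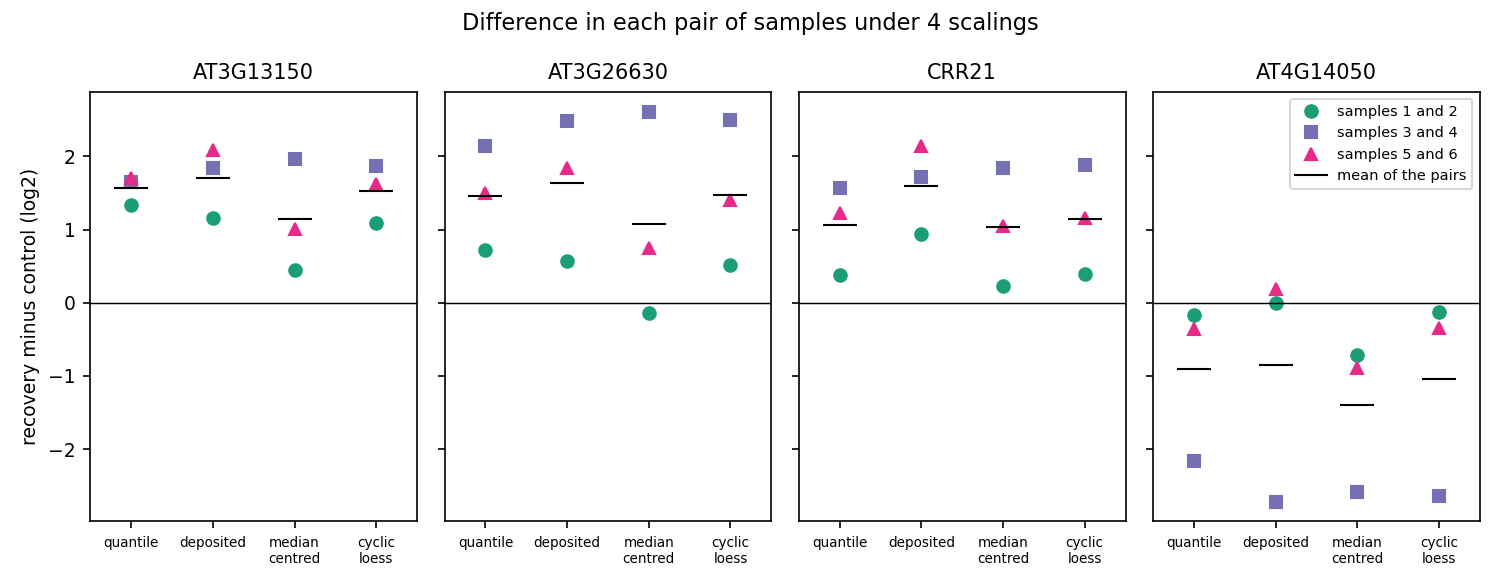
Recovery minus control on the log2 scale for each gene, by pair of samples (coloured markers) and as the mean of the 3 pairs (black dash), under 4 ways of scaling the arrays. Samples 3 and 4 give the largest difference of AT3G26630 and AT4G14050 under each scaling, and AT4G14050 stays between -0.36 and 0.19 in the other pairs except after median centring.

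The genes also differed between the control pairs. In control samples AT3G13150, AT3G26630 and CRR21 were each lowest in samples 3 and 4, intermediate in samples 5 and 6 and highest in samples 1 and 2. AT4G14050 had the reverse order, with control pair means of 0.10, 1.18 and 0.36. Of all features, 15.9% had the first order in the control group and 18.6% the reverse. The control pairs spanned 0.96 in CRR21, 1.09 in AT4G14050, 1.00 in AT3G13150 and 1.46 in AT3G26630, around the median span of 1.16 over all features. No single order of the recovery pairs held for all 4 genes. AT3G26630 and AT4G14050 were both lowest in samples 3 and 4 and highest in samples 5 and 6, an order of 18.5% of all features. AT3G13150 was also lowest in samples 3 and 4, and CRR21 in samples 1 and 2.

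Likeness of profiles was measured as the root mean square distance between log2 levels over the 12 samples, each gene centred on its own mean. The samples come in pairs and share one normalisation, so the distances are a description. AT3G13150 and AT3G26630 lay 0.37 apart, where the median distance from AT3G26630 to other genes was 1.18. CRR21 was 0.54 from AT3G13150 and 0.61 from AT3G26630, and AT4G14050 was 1.26 to 1.44 from the other 3. All of these genes were chosen by their difference over the same samples. That choice favours short distances among the genes higher in recovery and long distances from them to AT4G14050. Nothing is therefore read from the distances among the chosen genes. The genes closest to AT3G13150 were AT1G35510 (0.29), AT4G39760 (0.35) and AT1G67800 (0.35). Their differences were 1.35, 1.26 and 1.23, sizes that likeness to AT3G13150 already favours and that are given with no test.

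Closest to AT3G26630 were AT1G72020 (0.36), AT3G13150 itself and AT3G26580 (0.45). Like AT3G26630, AT1G72020 had its largest difference in samples 3 and 4, at 2.51 against 0.74 and 0.40. CRR21 was closest to AT1G18060 (0.42), AT1G12100 (0.44) and AT3G09250 (0.48). Their differences were 0.41, 0.78 and 0.80, each with its largest value in samples 3 and 4. AT4G14050 was closest to AT1G61590 (0.29), AT2G13690 (0.33) and AT2G40980 (0.33). Those 3 genes also had their lowest difference in samples 3 and 4, at -1.86, -1.66 and -1.17. For all the genes named here, likeness of profile already favours such shared pair values, and they are given with no test.

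The array held probes of their own for another 17 genes listed here as family members. The list was recalled from memory and may miss family genes on the array. With the 4 chosen by their difference they make 21 genes, so counts over the 17 leave out those 4. All 4 left out had an unadjusted limma p under 0.05. The choice thus favours low counts among the 17, and nothing is read from these counts. None of the 17 passed limma at an adjusted p under 0.05, as 3.03% of all features did, and 0 had an unadjusted p under 0.05, as 18.3% of all features did. Their median difference was 0.15, against -0.02 over all features, with 12 of 17 above 0 and a range of -0.93 to 1.10. Of the 17, 6 were higher in recovery in all 3 pairs and 0 were lower in all 3, where 15.7% and 20.7% of all features were. The groups overlapped in every one of the 17.

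Of the 17, 4 are known for a particular organelle transcript, as CRR21 is. OTP85 (AT2G02980), an editing factor of chloroplast ndhD like CRR21, differed by 0.10 ± 0.58 (standard error; limma adjusted p = 0.954). Its pair values were -0.98, 0.74 and 0.53, and recovery 1 lay at the floor. OTP70 (AT4G25270), needed for splicing of the plastid RNA polymerase transcript rpoC1, had levels of -0.95 to -0.65 in control and -1.06 to 0.30 in recovery, which differ by 0.42 ± 0.25 (standard error; adjusted p = 0.398). OTP70 was the 1 family gene of the 17 called without samples 3 and 4 of both groups (difference 0.76, adjusted p = 0.0441). That fit called 416 of all 3438 features and had no term for the remaining pairs, so nothing is read from the call. AT3G22690, known as YS1, edits the transcript of plastid rpoB. It had a difference of -0.02 with a standard error of 0.60. AT3G22150, known as AEF1, edits plastid atpF and a mitochondrial transcript, and differed by 0.80 ± 0.74 (standard error; adjusted p = 0.608). YS1 and AEF1 had 3 and 1 of their 12 values at the floor.

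The remaining 13 family genes have no target assigned here. AT2G30100 had the largest positive difference, 1.10 ± 0.62 (standard error; adjusted p = 0.382), with 2.96 in samples 3 and 4 against 0.18 and 0.16 in the other pairs. AT5G02830 had the lowest, -0.93 ± 0.69 (standard error; adjusted p = 0.507), with 2 recovery values at the floor. AT1G79080 followed at -0.54. AT5G15280 (0.45), AT4G04370 (0.45) and AT4G21170 (0.42) were each higher in all 3 pairs by amounts that did not pass the test. AT2G17670 had 0.83 and AT2G46050 0.58, with 2.53 and 1.65 in samples 3 and 4 and values between -0.39 and 0.34 elsewhere. AT1G31790 (0.15), AT3G49740 (0.01), AT2G19280 (0.00) and AT5G39980 (-0.19) lay near 0. Of these, AT5G39980 reached 3.77 in samples 3 and 4 and -2.85 in samples 1 and 2. AT3G51320 was at the floor in 10 of 12 samples, so its value is not interpretable.

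**Figure D3:**
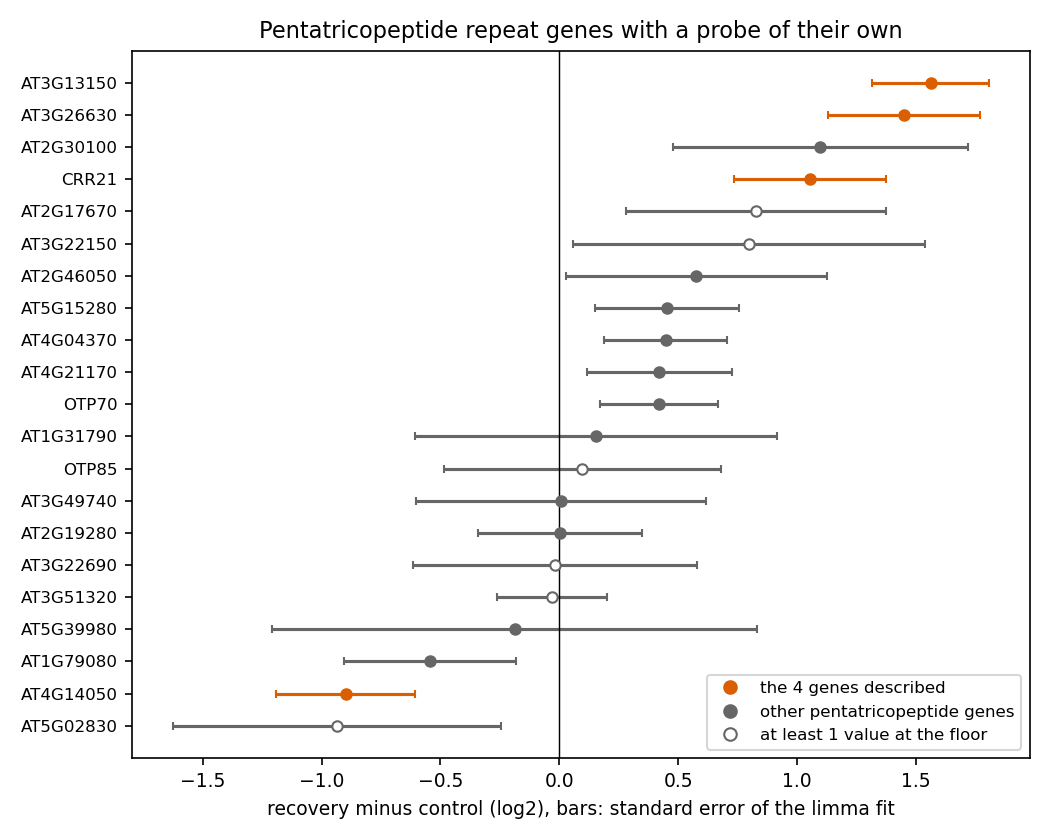
Recovery minus control on the log2 scale, with the standard error of the limma fit, for 21 pentatricopeptide genes with a probe of their own. They are the 4 genes described and the others listed from memory. Open circles mark genes with at least 1 value at the floor. AT3G13150 and AT3G26630 lie at the upper end, CRR21 (1.06) just below AT2G30100 (1.10), and AT4G14050 (-0.90) just above the lowest gene, AT5G02830 (-0.93), places that the choice of the 4 on this contrast favours.

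By pair, the median of the 17 other family genes was 0.70 in samples 3 and 4, with 12 above 0, while the median of all features was -0.11 and 44.4% were above 0. The family median was 0.12 in the first pair and 0.16 in the third, with 10 of 17 above 0 in each, and the median of all features was 0. A difference over 1 was reached by 6 of the 17 in samples 3 and 4, where 19.3% of all features reached it. It was reached by 1 of the 17 in the first pair (9.71% of all features) and 1 in the third (15.4%). A difference below -1 was found in 3 of the 17 in the first pair, 1 in the second and 2 in the third. Whether the family differed from other features between pairs was not tested.

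**Figure D4:**
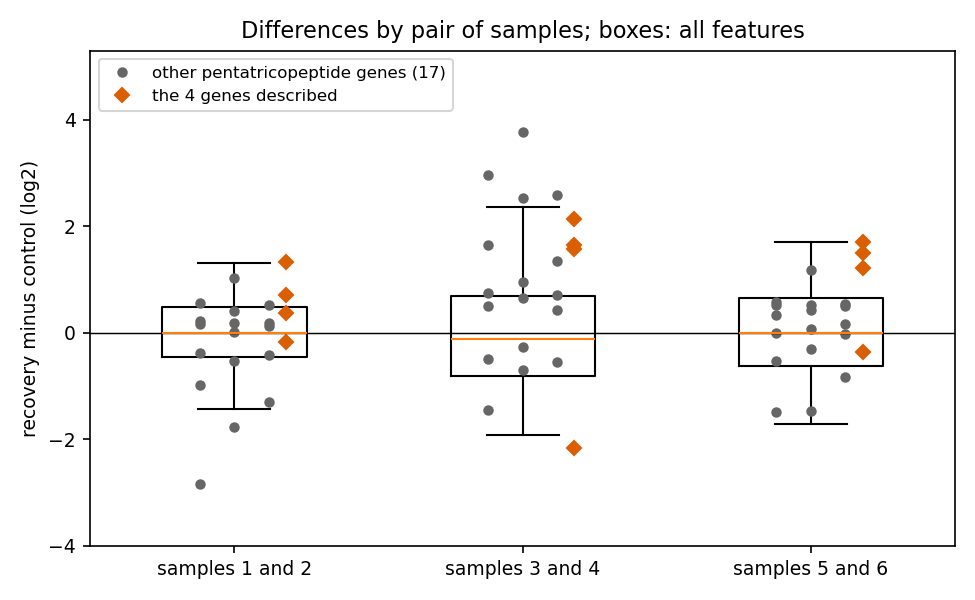
Recovery minus control on the log2 scale by pair of samples. Boxes give the quartiles and whiskers the 5th to 95th percentile of all 3438 features, grey circles the 17 other family genes and orange diamonds the 4 genes described. The highest grey circle stands at 1.02 in the first pair, 3.77 in the second and 1.18 in the third.

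Of the partners of these proteins in organelle RNA metabolism, 1 of 22 listed factors had a probe of its own. This was AT1G70200, known as RBD1, an RNA-binding protein of chloroplast ribosomal RNA, with a difference of -0.05 and a standard error of 0.17 (limma adjusted p = 0.916). Its value was within 0.25 of 0 in all 3 pairs. Of 12 listed nuclear genes of plastid transcription, most of them sigma factors and RNA polymerases, 0 had a probe of their own. Of 22 genes for NDH subunits and assembly factors, the complex to which the CRR21 target belongs, 3 were measured. None passed limma and 0 had an unadjusted p under 0.05, beside 3.03% and 18.3% of all features, and nothing is read from 0 of 3 genes. The median difference of the 3 was 0.37, beside -0.02 over all features. NdhN (AT5G58260), a subunit of the stromal arm, had 0.37 with a standard error of 0.62. NdhS (AT4G23890), the subunit that binds ferredoxin, had levels of 2.11 to 2.79 in control and 2.13 to 2.95 in recovery and a difference of 0.18 with a standard error of 0.20. CRR41 (AT1G51100), an assembly factor, had 0.47 with a standard error of 0.37, and 1.67 of it in samples 3 and 4 against -0.16 and -0.12 in the other pairs.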

How the data were processed

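The deposited value table gives intensities on a linear scale from 0 to 100. How the authors scanned, background-corrected or normalised them is not given in the sources used here. Groups and replicate numbers came from the sample titles. Probe names came from the platform annotation (692 probes with 1 gene, 870 with several, 1877 unnamed here). Symbols came from RefSeq (TAIR10.1), where 690 of the 692 were found. No genome build is named for the series, so no positions are given, and no probe or protein sequences were used here.

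Intensities were quantile-normalised (limma 3.58.1, R 4.3.3), floored at the 5th percentile of positive values (0.0298) and log2-transformed. Probes of 1 gene were averaged, leaving 3438 features. All 12 samples were fitted with lmFit and eBayes, without covariates, two-sided, with Benjamini-Hochberg adjustment over all features. The fit was tested on simulated data. Every adjusted p comes from limma. The number of arrays limits the precision.

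Same-numbered samples of the groups deviated together (correlations of 0.110 to 0.462, each over 0.1, against -0.229 to 0.008 between other pairs). The other sample of the same pair gave 0.081 to 0.168, so deviations were also shared within a pair. A fit with replicate number as a block was run beside the one without it. That block still counts the 2 samples of a pair as independent. Standard errors and adjusted p-values are from the fit without the block unless the block is named.

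Members and lists were chosen with earlier results of these data known. The family list held 23 genes from memory, 3 of them measured. The gene table's names held 0 family terms among measured genes, so 14 loci on the array were added, also recalled from memory as family members, without regard to their values. Named were the members, the 3 genes closest to each in profile, and every measured gene of the lists. Alternatives covered scaling, floor, filter, spread, pairs and samples left out.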

Additional observations from a re-analysis of the deposited data

Results flagged for a closer look

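In each group of 6 samples, the highest or lowest value was compared with its neighbour, as the gap's share of the group's range, for the 36 genes named. Of 72 groups, 5 were past Dixon's critical value, and 0 of the 8 groups of the 4 genes described were. Chance gives about 1 in 20 for independent values only. The samples here come in close pairs, so nothing is read from either count. OTP85 had recovery 1 below the other recovery samples, at the floor, with a share of 0.702. AT1G72020, the gene closest to AT3G26630, had recovery 5 low with a share of 0.735. AT1G12100, close to CRR21, had control 3 low with a share of 0.642. AT3G51320 had a share of 1 in both groups, since 5 of 6 values in each were tied at the floor and control 3 and recovery 2 were not.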

How the results depend on the processing

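The 4 genes kept their direction in all 25 alternatives. AT3G13150 ranged from 1.14 to 1.70, AT3G26630 from 1.07 to 1.82, CRR21 from 0.80 to 1.60 and AT4G14050 from -1.40 to -0.27. Values moved by more than the gene's SD within groups, pooled over both (0.40 for AT3G13150, 0.50 for AT4G14050), for AT3G13150 with median centring (1.14) and for AT4G14050 with median centring (-1.40) and without samples 3 and 4 (-0.27); the cause was not tested. Since the 4 genes were chosen on this contrast, nothing is read from the number of their calls. Of the 25 alternatives, AT3G13150 was called in 21, among them each of the 12 that left out a single sample, and AT3G26630 in 9. Leaving out a single sample kept the other sample of its pair. AT3G13150 was not called with median centring, with pairs as a random block, with pairs averaged, or without samples 5 and 6. The call of AT3G26630 was lost without any 1 recovery sample and without control 3, 5 or 6. CRR21 was called in 1, the deposited scale, where the overall median was itself shifted by 0.43, and AT4G14050 in 1, median centring. With samples left out singly, the ranges were 1.45 to 1.66, 1.17 to 1.62, 0.93 to 1.25 and -0.99 to -0.75. Calls over all features, 104 in the fit of 12 samples, numbered 65 with median centring (14 higher, 51 lower, against 41 and 63), 109 on the deposited scale (79 and 30, with 65 of the 109 among the 104), 60 with cyclic loess, 3 with pairs as a random block, 0 with pairs averaged, and 28, 416 and 10 without samples 1 and 2, 3 and 4, and 5 and 6. They ran from 42 to 93 with samples left out singly. With the replicate block 106 features were called, 58 of them among the 104, and among the genes named from the family the call of AT3G26630 alone changed. The median of the 17 other family genes ranged from 0.004 to 0.66, the latter on the deposited scale. Of the 17, 6 had at least 1 value at the floor and 8 were dimmer than the median feature, which limits what can be seen of the family.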
